A study of Mus musculus with 11 samples.

Results

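The splicing factors of the hnRNP and SR families were examined in RNA sequencing of whole mouse hearts. Members were the protein-coding rows of the count table whose symbol starts with Hnrnp, or with Srsf and a digit. These were 31 of 54532 genes, 20 of them hnRNP genes and 11 SR genes. All hearts came from C57BL/6 mice and carried a time label of 26 weeks. In the METTL3 group, 4 libraries were labelled HFD+STZ+AAV METTL3. The HFD+STZ group held 4 libraries and the Chow group 3. HFD and STZ commonly denote a high-fat diet and the beta-cell toxin streptozotocin, and AAV a virus used for gene delivery, but the labels leave these letters unexplained. METTL3 itself is the enzyme that places N6-methyladenosine (m6A) on messenger RNA. Neither the promoter and cell type in which the virus acted, nor whether HFD+STZ and Chow mice received any virus, can be read from the labels.

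Heterogeneous nuclear ribonucleoproteins (hnRNPs) coat new transcripts in the nucleus and often repress nearby splice sites. SR proteins carry a domain rich in serine and arginine, are phosphorylated by SRPK and CLK kinases, and often promote exon inclusion by recruiting the spliceosome. In mouse heart, cardiac deletion studies tie Srsf1, Srsf2, Srsf3 and Hnrnpu to contractile failure. HNRNPA2B1 and HNRNPC bind transcripts that carry m6A, HNRNPC through structures that the mark opens. Many members also limit their own messages through exons that trigger decay, which counts per gene do not show.

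Values are raw counts per gene, given here as CPM, the count divided by a library size scaled by the trimmed mean of M values (TMM). Libraries held 13900531 to 16952639 counts. The mitochondrial genome took 37.7% to 45.5% of them in METTL3 hearts, 28.6% to 32.5% in HFD+STZ hearts and 9.28% to 27.4% in Chow hearts. Mettl3 lay at 6.52 to 10.8 CPM in METTL3 hearts, 4.39 to 7.82 CPM in HFD+STZ hearts and 3.04 to 7.88 CPM in Chow hearts. Its log2 fold change of 0.40 over HFD+STZ did not pass (edgeR, Benjamini-Hochberg adjusted p of 0.759), so directions for METTL3 hearts rest on the label. Summed cardiomyocyte markers, 8 genes, lay at 40343 to 44504 CPM in METTL3 hearts, 35872 to 52748 CPM in HFD+STZ hearts and 43899 to 45526 CPM in Chow hearts, and none of the 8 was at 0. Chow replicate 3 stood apart. Its mitochondrial share was 9.28%, and 21 genes were at 0 there that had at least 50 counts in every other library, against 0 such genes for each of the other 10 libraries. Srsf4 was among them. Chow replicate 3 was the highest of all 11 libraries for 16 of the 30 members tested and the lowest for 3.

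Of the 31 members, 30 passed the filter on low counts. Srsf12, the SR gene that did not, had 0 to 2 counts per library. Levels between genes were compared as CPM per kilobase of deposited gene length. On that scale Hnrnpa2b1 was the most abundant member, at 62.5 ± 10.3 in METTL3 hearts (SD, n = 4), 52.3 ± 5.71 in HFD+STZ hearts (SD, n = 4) and 56.2 ± 14.5 in Chow hearts (SD, n = 3). Hnrnpa0, which binds AU-rich messages, and Hnrnpab, a factor of the same RNA-binding fold, followed among the hnRNP genes, with means over all libraries of 36.7 and 30.2 CPM per kilobase. The SR genes were led by Srsf2 at 38.8, Srsf5 at 36.5 and Srsf6 at 24.7 CPM per kilobase. At the low end of this scale, Hnrnpr averaged 1.52, Srsf4 2.81 and Hnrnpll 2.97 CPM per kilobase. The deposited lengths of Hnrnpr and Hnrnpll are 22199 and 11677 bases, so their low rank depends on that divisor. Without it they averaged 33.8 and 34.7 CPM, above Srsf4, Srsf9 and Hnrnph3. The hnRNP genes together took 0.268% to 0.314% of nuclear counts in METTL3 hearts, 0.242% to 0.319% in HFD+STZ hearts and 0.293% to 0.315% in Chow hearts. For the SR genes the shares were 0.103% to 0.152% in METTL3 hearts, 0.0850% to 0.133% in HFD+STZ hearts and 0.107% to 0.143% in Chow hearts. These shares overlapped between groups for both families.

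**Figure D1:**
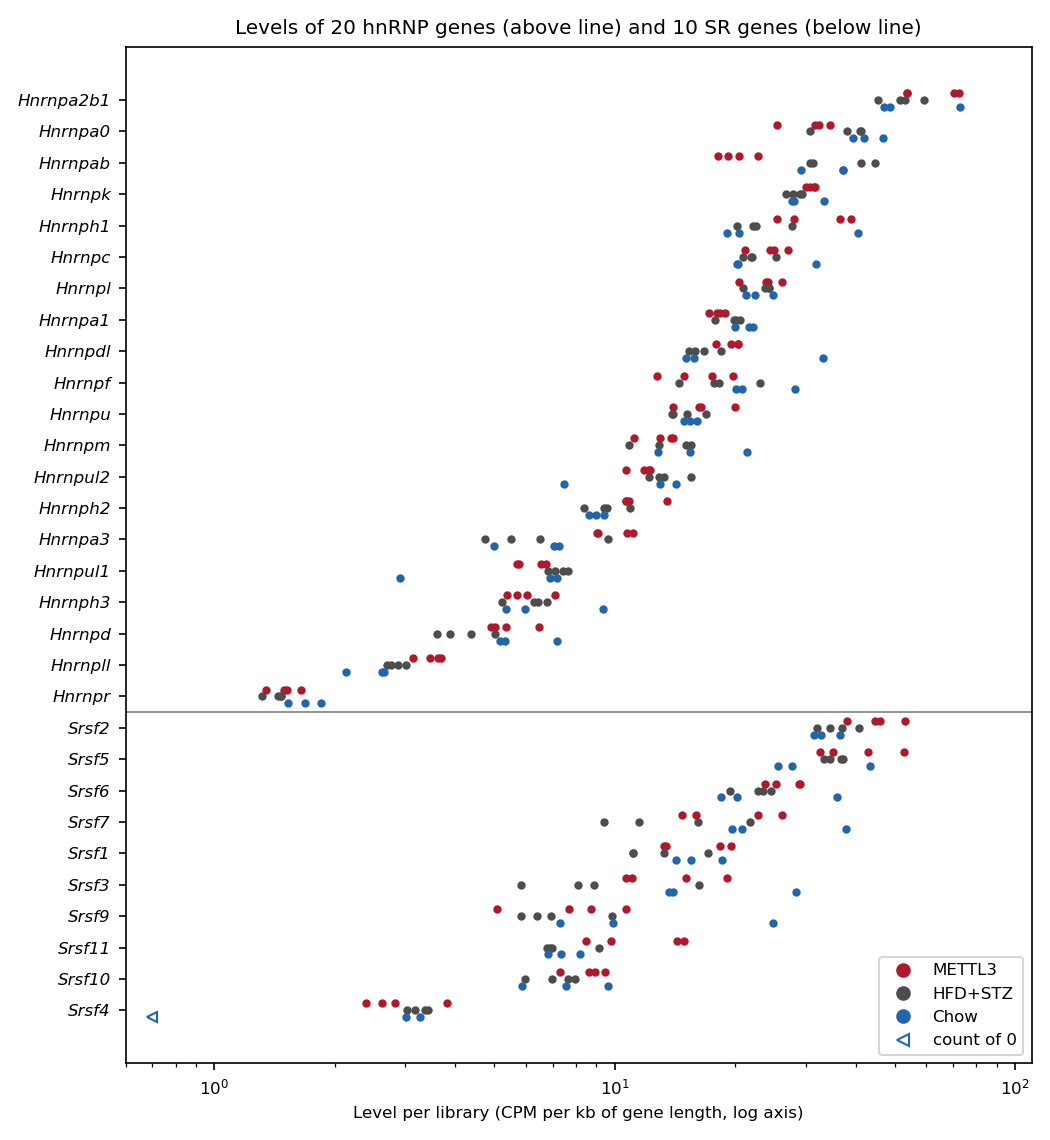
Level of each tested hnRNP gene (above the line) and SR gene (below it) in CPM per kilobase of gene length on a log axis. Each point is 1 library, and the open triangle marks Srsf4 at a count of 0 in Chow replicate 3. For Hnrnpab all 4 METTL3 libraries lie left of all HFD+STZ and Chow libraries.

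METTL3 and HFD+STZ hearts differed by label in AAV METTL3. Since no control virus is labelled, METTL3 and the virus itself cannot be told apart in this comparison. Hnrnpab showed the smallest p of all members between METTL3 and HFD+STZ hearts. Its level was 63.5, 50.3, 53.2 and 56.7 CPM in METTL3 hearts, 86.9, 115, 85.4 and 124 CPM in HFD+STZ hearts and 104, 103 and 81.5 CPM in Chow hearts. Every METTL3 library lay below every library of both other groups. The log2 fold change over HFD+STZ was -0.88 (SE 0.17, 95% interval -1.25 to -0.51). It did not pass the threshold of 0.05 over all genes (edgeR, Benjamini-Hochberg adjusted p of 0.342). Over Chow the log2 fold change was -0.78 (SE 0.18, 95% interval -1.18 to -0.39), which did pass (edgeR, Benjamini-Hochberg adjusted p of 0.0420). Hnrnpab (ENSMUSG00000020358, chromosome 11, 51600100 to 51606847, mm10 coordinates as deposited) had 602 to 811 counts in METTL3 libraries, 1226 to 2039 in HFD+STZ libraries and 1447 to 2001 in Chow libraries. The span of Phykpl overlaps it on the opposite strand, with 120 to 234 counts a library. Whether their exons share sequence was not checked and no strand setting is stated, so the split of reads between them is uncertain. In whole tissue, fewer cells of a type and less RNA per cell cannot be told apart.

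The close relatives of Hnrnpab lay on the other side of HFD+STZ, without a call. Hnrnpd encodes AUF1, a factor in the decay of AU-rich messages, and Hnrnpdl its nearest relative. Counts of Hnrnpab over those of Hnrnpdl stood at 0.735, 0.513, 0.567 and 0.578 in METTL3 libraries, 0.981, 1.42, 1.12 and 1.68 in HFD+STZ libraries and 1.43, 1.36 and 0.509 in Chow libraries. The METTL3 ratios were thus below all HFD+STZ ratios, while Chow replicate 3 lay just below the lowest METTL3 library. Against Hnrnpd the ratio was 1.76, 1.28, 1.44 and 1.19 in METTL3 libraries, 2.35, 3.58, 3.23 and 4.35 in HFD+STZ libraries and 2.65, 2.71 and 1.54 in Chow libraries. METTL3 ratios were again below all HFD+STZ ratios, and Chow replicate 3 lay within the METTL3 range. For Hnrnpd the levels were 36.1, 39.3, 36.9 and 47.5 CPM in METTL3 hearts, 37.02, 32.1, 26.4 and 28.5 CPM in HFD+STZ hearts and 39.2, 38.1 and 52.9 CPM in Chow hearts, and its log2 fold change over HFD+STZ of 0.36 (SE 0.17) did not pass (edgeR, Benjamini-Hochberg adjusted p of 0.552). Hnrnpdl stood at 86.5, 98.1, 93.9 and 98.1 CPM in METTL3 hearts, 88.6, 80.7, 76.3 and 73.96 CPM in HFD+STZ hearts and 72.5, 76.2 and 159.9 CPM in Chow hearts. In both genes the METTL3 range overlapped with that of HFD+STZ, and Chow replicate 3 was the highest library.

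The start regions of Hnrnpab and of 3 members beside it are shown because these 4 had the smallest p over Chow among members with a single promoter in the RefSeq table (GRCm38.p6, 250 bases before to 50 after the start, 5′ to 3′ on the gene's strand). Capitals mark the GC box GGGCGG, the CCAAT box CCAAT and the TATA box TATAAA on either strand; matches of different motifs may overlap.
Hnrnpab, chr11:51606832-51607131, minus strand: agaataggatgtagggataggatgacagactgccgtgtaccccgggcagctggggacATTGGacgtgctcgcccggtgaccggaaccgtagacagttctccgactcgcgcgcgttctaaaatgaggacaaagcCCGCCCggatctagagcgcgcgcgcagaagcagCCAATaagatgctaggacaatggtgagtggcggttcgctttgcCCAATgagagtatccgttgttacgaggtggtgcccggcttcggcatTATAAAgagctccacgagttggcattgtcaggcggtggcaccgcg
Hnrnpa0, chr13:58128507-58128806, minus strand: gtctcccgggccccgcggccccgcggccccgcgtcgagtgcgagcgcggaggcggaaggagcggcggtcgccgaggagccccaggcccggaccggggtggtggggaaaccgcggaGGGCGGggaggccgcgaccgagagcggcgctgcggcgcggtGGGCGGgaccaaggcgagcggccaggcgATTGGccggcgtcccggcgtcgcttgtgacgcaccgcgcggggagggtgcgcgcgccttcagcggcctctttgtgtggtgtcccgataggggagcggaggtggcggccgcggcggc
Hnrnpa3, chr2:75659009-75659308, plus strand: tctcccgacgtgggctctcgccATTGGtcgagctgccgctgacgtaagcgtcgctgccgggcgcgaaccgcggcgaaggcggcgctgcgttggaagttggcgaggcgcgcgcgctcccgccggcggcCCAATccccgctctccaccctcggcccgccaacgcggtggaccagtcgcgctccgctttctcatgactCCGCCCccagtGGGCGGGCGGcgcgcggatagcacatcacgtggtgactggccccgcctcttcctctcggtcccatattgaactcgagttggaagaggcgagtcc
Srsf2, chr11:116853045-116853344, minus strand: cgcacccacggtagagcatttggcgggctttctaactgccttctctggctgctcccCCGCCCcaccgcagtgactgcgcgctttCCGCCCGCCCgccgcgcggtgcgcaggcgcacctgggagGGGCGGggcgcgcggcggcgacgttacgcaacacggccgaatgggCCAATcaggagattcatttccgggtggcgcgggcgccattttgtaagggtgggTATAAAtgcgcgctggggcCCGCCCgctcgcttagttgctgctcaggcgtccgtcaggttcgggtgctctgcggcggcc
The Hnrnpab window held 1 GC box, 3 CCAAT boxes and 1 TATA box, with a GC content of 58.3%. GC content was 79.7% for Hnrnpa0, 70.3% for Hnrnpa3 and 69.3% for Srsf2, so Hnrnpab had the least GC-rich of the 4. Hnrnpa0 held 2 GC boxes and 1 CCAAT box, Hnrnpa3 3 and 2, and Srsf2 5 and 1 with 1 TATA box. RefSeq promoters were listed for 29 of the 31 members, 41 in number. A GC box was present in 82.9% of these, against 35.7% of all 32851 promoters of the table, noncoding genes included. For the CCAAT box the shares were 51.2% and 37.4%, and for the TATA box 9.76% and 13.6%. The median GC content was 68.3% in member promoters and 52.7% in all promoters. These matches describe letters and do not show that a factor binds.

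Genes of the hnRNP A group went different ways. Hnrnpa3, a close relative of the splicing repressor Hnrnpa1, stood at 48.7, 59.8, 49.2 and 57.9 CPM in METTL3 hearts, 52.05, 35.2, 25.6 and 29.8 CPM in HFD+STZ hearts and 39.3, 37.96 and 26.96 CPM in Chow hearts. Only HFD+STZ replicate 1 reached into the METTL3 range. The log2 fold change of Hnrnpa3 over HFD+STZ was 0.59 (SE 0.22) and did not pass (edgeR, Benjamini-Hochberg adjusted p of 0.451). Hnrnpa0 was at 84.7, 68.1, 86.5 and 92.6 CPM in METTL3 hearts, 102, 109.5, 82.4 and 111 CPM in HFD+STZ hearts and 105, 113 and 126 CPM in Chow hearts. The METTL3 libraries were below all Chow libraries but overlapped with HFD+STZ replicate 3, and the log2 fold change over HFD+STZ was -0.29 (SE 0.16), without a call (edgeR, Benjamini-Hochberg adjusted p of 0.623). Hnrnpa1 lay at 54.2 to 59.6 CPM in METTL3 hearts, 56.2 to 64.9 CPM in HFD+STZ hearts and 62.96 to 69.8 CPM in Chow hearts. Within each library the counts of Hnrnpa3 over Hnrnpa1 were 0.842, 1.103, 0.863 and 0.971 for METTL3, 0.802, 0.555, 0.456 and 0.476 for HFD+STZ and 0.575, 0.603 and 0.386 for Chow. The METTL3 ratios were all above those of both other groups.

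The members tied to m6A in the literature showed no call. Hnrnpa2b1 stood at 353, 477, 353 and 463 CPM in METTL3 hearts, 349.6, 390.1, 339.7 and 299 CPM in HFD+STZ hearts and 309, 321 and 479.8 CPM in Chow hearts. METTL3 replicates 2 and 4 and Chow replicate 3 were the highest libraries, and the groups overlapped. Over HFD+STZ its log2 fold change was 0.26 with a 95% interval of -0.16 to 0.67 (edgeR, Benjamini-Hochberg adjusted p of 0.731). Hnrnpc was at 117, 105, 108 and 91.7 CPM in METTL3 hearts, 90.3, 109, 94.8 and 95.2 CPM in HFD+STZ hearts and 87.7, 87.5 and 138 CPM in Chow hearts, with a log2 fold change over HFD+STZ of 0.12 and a 95% interval of -0.26 to 0.49. Both signs turn below 0 once GC content and length are offset, at -0.09 for Hnrnpa2b1 and -0.17 for Hnrnpc.

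Hnrnpll, the relative of hnRNP L that controls CD45 splicing in lymphocytes, lay at 40.4, 42.4, 43.04 and 36.6 CPM in METTL3 hearts, 31.5, 33.5, 35.2 and 32.2 CPM in HFD+STZ hearts and 30.9, 24.8 and 30.6 CPM in Chow hearts. All METTL3 libraries were above all others. Its log2 fold change was 0.30 (SE 0.14) over HFD+STZ and 0.50 (SE 0.15) over Chow, and neither passed (edgeR, Benjamini-Hochberg adjusted p of 0.543 and 0.0815). With GC content and length offset these fold changes were 0.06 and 0.11. Among the hnRNP H and F genes, which bind runs of G, Hnrnph1 was at 148, 213, 164 and 228 CPM in METTL3 hearts, 162, 132, 129 and 118 CPM in HFD+STZ hearts and 112, 119 and 237 CPM in Chow hearts. HFD+STZ replicate 1 lay within the METTL3 range and Chow replicate 3 above it. Hnrnph2, on the X chromosome, was at 46.5, 46.5, 47.4 and 59.05 CPM in METTL3 hearts, 36.6, 47.6, 41.1 and 41.8 CPM in HFD+STZ hearts and 39.2, 37.6 and 40.98 CPM in Chow hearts. METTL3 libraries were all above Chow, while HFD+STZ replicate 2 reached into their range. Hnrnpf stood at 53.3, 38.9, 45.4 and 60.3 CPM in METTL3 hearts, 70.3, 53.9, 44.1 and 55.5 CPM in HFD+STZ hearts and 63.5, 61.1 and 86.1 CPM in Chow hearts, with METTL3 below Chow in every library.

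Of the SR genes, Srsf11, whose protein interacts with the splice site factor U2AF, had the smallest p in this comparison. It stood at 71.4, 121, 82.5 and 126 CPM in METTL3 hearts, 77.01, 57.2, 58.8 and 58.2 CPM in HFD+STZ hearts and 62.03, 57.5 and 69.3 CPM in Chow hearts. METTL3 replicates 2 and 4 were far above the rest, and HFD+STZ replicate 1 lay above METTL3 replicate 1. The log2 fold change over HFD+STZ was 0.67 (SE 0.20) and did not pass (edgeR, Benjamini-Hochberg adjusted p of 0.373). Srsf2, an exonic enhancer binder, was at 113, 157, 132 and 136 CPM in METTL3 hearts, 120.2, 109, 102 and 94.6 CPM in HFD+STZ hearts and 93.1, 97.1 and 108 CPM in Chow hearts. METTL3 replicate 1 lay below HFD+STZ replicate 1, so the groups overlapped, and the log2 fold change of 0.33 (SE 0.15) did not pass (edgeR, Benjamini-Hochberg adjusted p of 0.542). Mettl23 and Mfsd11 overlap Srsf2 on the opposite strand with up to 1214 and 523 counts a library.

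Srsf5 and Srsf6, SR proteins that bind exonic enhancers, overlapped between groups. Srsf5 was at 140.1, 210.0, 129.7 and 171 CPM in METTL3 hearts, 138, 146, 149 and 133 CPM in HFD+STZ hearts and 102, 110.4 and 173 CPM in Chow hearts. Srsf6 was at 121, 139, 114 and 139 CPM in METTL3 hearts, 118, 113, 109 and 93.6 CPM in HFD+STZ hearts and 88.7, 96.9 and 173 CPM in Chow hearts. METTL3 replicate 2 led for Srsf5 and Chow replicate 3 for Srsf6, for which the METTL3 and HFD+STZ ranges overlapped as well.

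**Figure D2:**
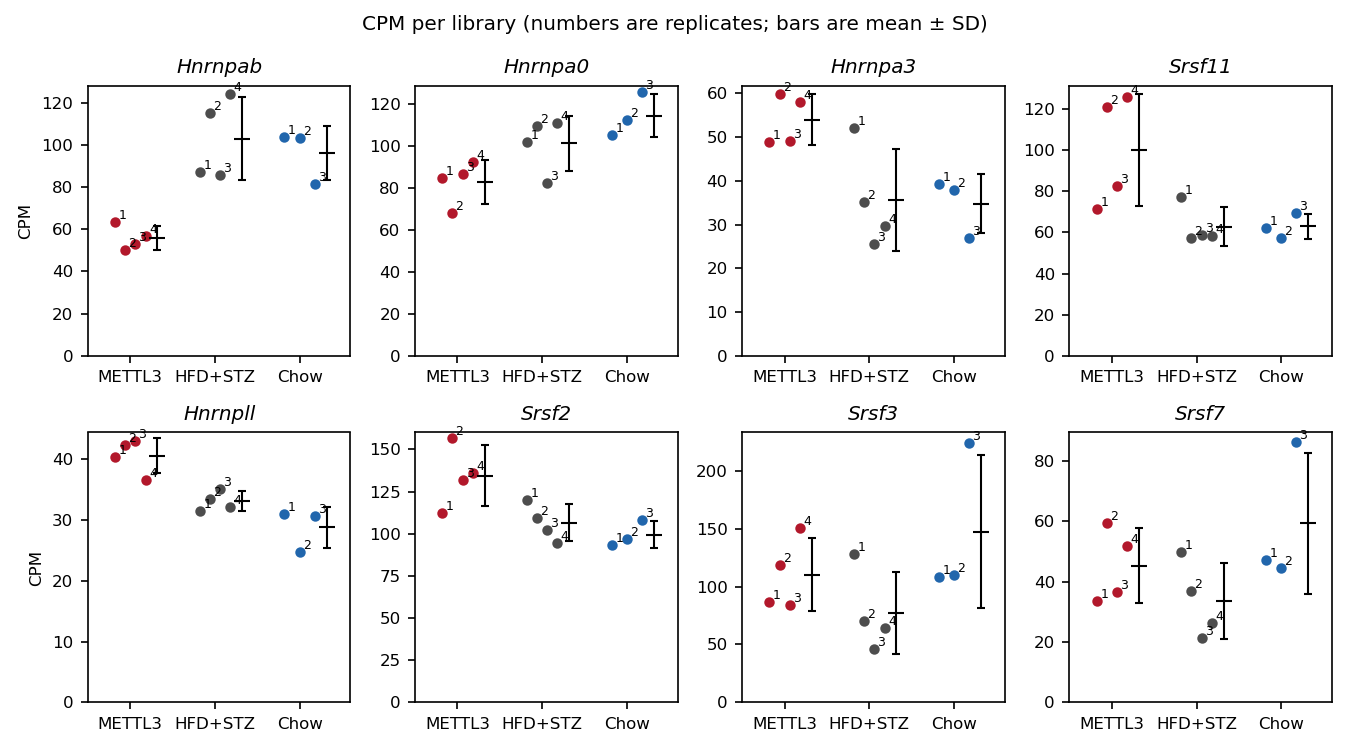
CPM of 8 members in METTL3, HFD+STZ and Chow hearts. Points are libraries, numbered by replicate, and the bar beside each group is its mean ± SD (n = 4, 4 and 3). Hnrnpab sits at 50.3 to 63.5 CPM in METTL3 hearts, below all other libraries, while Srsf3 and Srsf7 peak in Chow replicate 3.

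Over the whole set, edgeR called 0 of 30 members between METTL3 and HFD+STZ hearts, with 0 of 14862 genes called (0%), while DESeq2 called 1, Hnrnpab, with 0.935% of all genes. Limma voom with quality weights called 3, Hnrnpab lower and Hnrnpa3 and Srsf11 higher, with 2.66% of all genes. At an unadjusted p under 0.05 there were 5 members, 16.7%, against 9.06% of all genes tested. They were 1 member below HFD+STZ, Hnrnpab (3.63% of all genes lay lower), and 4 above, Srsf11, Hnrnpa3, Srsf2 and Hnrnpll (5.43% of all genes lay higher). The groups did not overlap in 4 members, 13.3%, against 9.57% of all genes: Hnrnpab and Hnrnpul1 lay lower (4.14% of all genes did), Hnrnpk and Hnrnpll higher (5.43% of all genes did). The median log2 fold change was 0.18 over the 30 members and -0.0036 over all genes. It was 0.28 over 10 SR genes, of which 9 were above 0, and 0.09 over 20 hnRNP genes, of which 12 were above 0. Over all genes 49.6% were above 0. The SR share of nuclear counts was 0.152% and 0.141% in METTL3 replicates 2 and 4, but 0.103% and 0.110% in METTL3 replicates 1 and 3. In HFD+STZ replicates 1 to 4 it was 0.133%, 0.0941%, 0.0850% and 0.0856%. METTL3 replicates 2 and 4 also had fewer genes with a count, 17317 and 17646, against 19157 and 18971 in METTL3 replicates 1 and 3. With GC content and length offset, 8 of 10 SR genes but 6 of 20 hnRNP genes were above 0, with medians of 0.18 and -0.12, and the median over all 30 turned to -0.04. Leaving out HFD+STZ replicate 1 together with Chow replicate 3, 4 members were called, Hnrnpab lower and Hnrnpa3, Srsf11 and Srsf3 higher, among 403 genes or 2.68% of those tested.

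Transcript GC content moved with this comparison. Across the 14851 genes tested with a GC value, the log2 fold changes of METTL3 over HFD+STZ had a Spearman rho of -0.48 with GC content. Across the 30 members rho was -0.48 as well, given as a description, since genes share the same 8 libraries. Median GC content was 44.9% in hnRNP genes, 47.5% in SR genes and 50.5% in all genes tested. Hnrnpab, at 52.5%, and Hnrnpa0, at 55.4%, were among the most GC-rich members, and Hnrnpa3, at 44.2%, below the hnRNP median. With GC content and length offset, the log2 fold change of Hnrnpab over HFD+STZ was -0.79 (edgeR, Benjamini-Hochberg adjusted p of 0.828), that of Srsf11 0.60 and that of Hnrnpa3 0.37. Scaling on nuclear genes alone, which removes the mitochondrial share from the library size, left Hnrnpab at -0.88. Sample codes in the labels fall into 25 to 33 and 78 to 98. Within 25 to 33, with 3 METTL3 and 3 HFD+STZ libraries, the log2 fold change was -0.96 for Hnrnpab (edgeR, Benjamini-Hochberg adjusted p of 0.0898), 0.79 for Hnrnpa3 and 0.65 for Srsf11. The range 78 to 98 holds 1 library of each of METTL3 and HFD+STZ, in which Hnrnpab was at 56.7 CPM in the METTL3 library and 86.9 CPM in the HFD+STZ library.

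**Figure D3:**
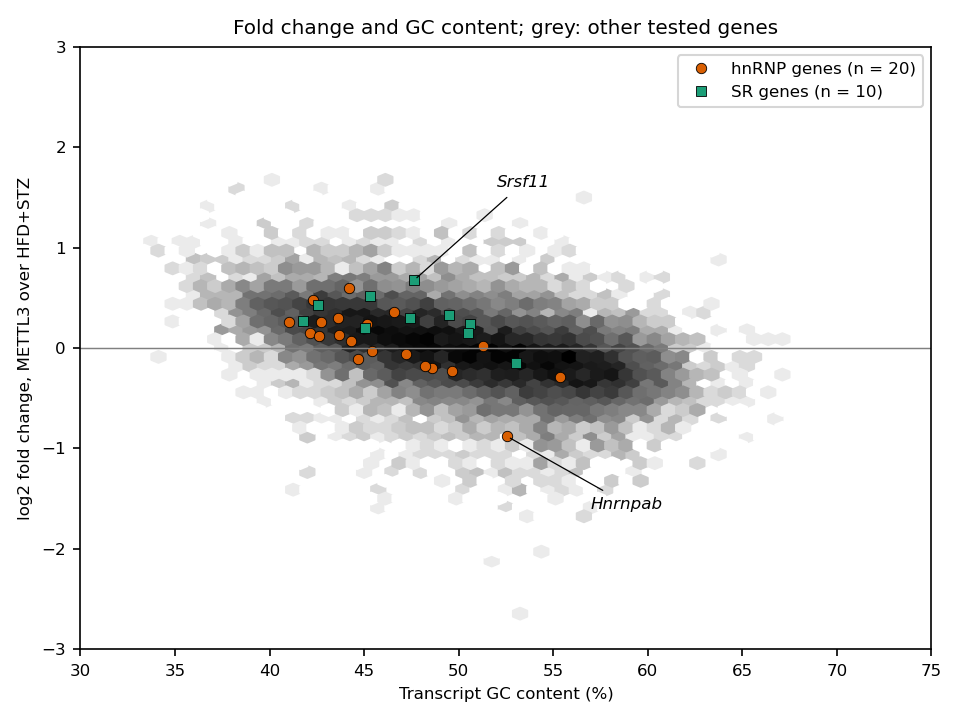
Log2 fold change of METTL3 over HFD+STZ against transcript GC content in percent. Grey hexagons are the other tested genes, darker where there are more on a log scale, with hnRNP genes as circles and SR genes as squares. Fold changes decline with GC content (Spearman rho -0.48), and Hnrnpab has the lowest value of the members.

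Markers of other cell types were summed in each library. The summed level of 8 macrophage markers was 167 to 310 CPM in METTL3 hearts, 257 to 611 CPM in HFD+STZ hearts and 428 to 853 CPM in Chow hearts. Of the 8, 3 were below HFD+STZ at an unadjusted p under 0.05 (edgeR), 0 above, and none was at 0 in every library. For 7 markers of cycling cells the sums were 8.46 to 13.2 CPM in METTL3 hearts, 8.999 to 54.9 CPM in HFD+STZ hearts and 17.98 to 31.7 CPM in Chow hearts, with 3 of 6 tested lower at that p and none at 0 in every library. The upper end is HFD+STZ replicate 1 alone, and the other HFD+STZ libraries lay at 8.999 to 13.5 CPM, close to the METTL3 range. The 5 neutrophil markers summed to 2.19 to 8.62 CPM in METTL3 hearts, 3.35 to 39.7 CPM in HFD+STZ hearts and 5.39 to 6.92 CPM in Chow hearts. Smooth muscle and pericyte sums overlapped, at 1392 to 1826 CPM in METTL3 hearts and 894 to 1432 CPM in HFD+STZ hearts. Median log2 fold changes of these and of Schwann cell markers over HFD+STZ were above 0, at 0.25 and 0.58. Fibroblast sums stood at 2031 CPM in HFD+STZ replicate 1 and 826 to 1018 CPM in the other HFD+STZ libraries. Erythroid sums were 1994 and 1076 CPM in METTL3 replicates 2 and 4, and 485 and 311 CPM in METTL3 replicates 1 and 3. The part of any of these cells in the Hnrnpab values was not tested.

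HFD+STZ hearts were next set against Chow hearts. The SR genes Srsf3, Srsf7 and Srsf9 had the lowest log2 fold changes of all members. Srsf3 and Srsf7 are close relatives that also serve mRNA export, and Srsf9 is the nearest relative of Srsf1. The Srsf3 level was 128, 70.05, 46.00 and 63.9 CPM in HFD+STZ hearts and 108, 110.4 and 224 CPM in Chow hearts. HFD+STZ replicate 1 lay above Chow replicates 1 and 2, and Chow replicate 3 was far above all others. For Srsf7 the level was 49.8, 36.8, 21.5 and 26.2 CPM in HFD+STZ hearts and 47.3, 44.6 and 86.2 CPM in Chow hearts. Srsf9 stood at 16.3, 11.4, 9.62 and 10.6 CPM in HFD+STZ hearts and 12.1, 16.4 and 41.04 CPM in Chow hearts. In all 3 genes HFD+STZ replicate 1 overlapped with Chow and Chow replicate 3 was the highest of the 11 libraries. Their log2 fold changes were -0.93 (SE 0.36), -0.82 (SE 0.32) and -0.95 (SE 0.38), and none passed (edgeR, Benjamini-Hochberg adjusted p of 0.342, 0.350 and 0.356). Without Chow replicate 3 they were -0.49, -0.44 and -0.24. Without HFD+STZ replicate 1 they were -1.29, -1.07 and -1.13. In METTL3 hearts Srsf3 was at 87.04, 119, 84.1 and 151 CPM, Srsf7 at 33.5, 59.5, 36.5 and 51.9 CPM and Srsf9 at 12.7, 17.6, 8.38 and 14.4 CPM. The counts of Srsf7 over Srsf3 kept to a narrow band, at 0.388, 0.526, 0.467 and 0.410 in HFD+STZ libraries and 0.438, 0.404 and 0.385 in Chow libraries, and at 0.385, 0.5004, 0.434 and 0.344 in METTL3 libraries.

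Of the hnRNP genes, Hnrnpd had the smallest p here. All 4 HFD+STZ libraries, at 26.4 to 37.02 CPM, lay below the Chow libraries, at 38.1 to 52.9 CPM. Its log2 fold change was -0.48 (SE 0.18), with no call (edgeR, Benjamini-Hochberg adjusted p of 0.341), and -0.31 without Chow replicate 3. Hnrnpr, a relative of the RNA-binding protein SYNCRIP, stood at 33.7, 36.4, 33.1 and 29.8 CPM in METTL3 hearts, 32.6, 32.5, 29.1 and 32.1 CPM in HFD+STZ hearts and 41.1, 37.4 and 33.8 CPM in Chow hearts. HFD+STZ lay below Chow in every library, and the log2 fold change of -0.25 (SE 0.14) did not pass (edgeR, Benjamini-Hochberg adjusted p of 0.493). It was -0.31 without Chow replicate 3. Hnrnpm was at 60.95, 64.9, 65.9 and 52.5 CPM in METTL3 hearts, 60.5, 70.8, 51.02 and 72.99 CPM in HFD+STZ hearts and 72.4, 60.4 and 101 CPM in Chow hearts, overlapping throughout. On the log2 scale Hnrnpf differed from Chow by -0.33 (SE 0.21) and Hnrnpdl by -0.36 (SE 0.24). Without Chow replicate 3 the value was -0.15 for Hnrnpf and turned to 0.11 for Hnrnpdl. Hnrnpab, the member furthest below HFD+STZ in METTL3 hearts, had a log2 fold change of 0.10 (SE 0.18, 95% interval -0.30 to 0.49) between HFD+STZ and Chow.

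Between HFD+STZ and Chow edgeR called 0 of 30 members, against 25 of 14862 genes or 0.168% (0.135% higher and 0.0336% lower), while DESeq2 called 0, with 2.07% of all genes. Limma voom with quality weights called 4 of 30, 13.3% (Hnrnpll higher, and Hnrnpd, Srsf3 and Srsf7 lower), against 13.1% of all genes. An unadjusted p under 0.05 was reached by 4 members, 13.3%, against 12.1% of all genes, and all 4 lay lower, as did 6.53% of all genes. The groups did not overlap in 3 members, 10%, against 10.4% of all genes. Of these, Hnrnpd and Hnrnpr lay lower (4.88% of all genes did) and Hnrnpll higher (5.52% of all genes did). Summed over both directions, these shares were near those of all genes. The median log2 fold change of the members was -0.11, against -0.02 over all genes, with 10 members above 0 and 20 below, and 48.4% of all genes above 0. Without Chow replicate 3 the median was 0.04, 12 members changed sign and 16 were above 0. HFD+STZ and Chow libraries cannot be compared within a sample code range except for HFD+STZ replicate 1, and with the range as a covariate 0 members were called (edgeR).

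Other marker lists were set against Chow in the same way. The 10 immediate early and heat shock genes summed to 116 to 230 CPM in HFD+STZ hearts and 246 to 387 CPM in Chow hearts, with 6 of 10 lower at an unadjusted p under 0.05 (edgeR) and 2 called. The macrophage sums given above overlapped, with 3 of 8 markers lower at that p. Of the 5 neutrophil markers 3 were higher at that p, with HFD+STZ replicates 2 and 3 at 39.7 and 38.1 CPM in sum and HFD+STZ replicates 1 and 4 at 7.43 and 3.35 CPM. Their part in the Srsf3, Srsf7 and Srsf9 values was not tested.

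**Figure D4:**
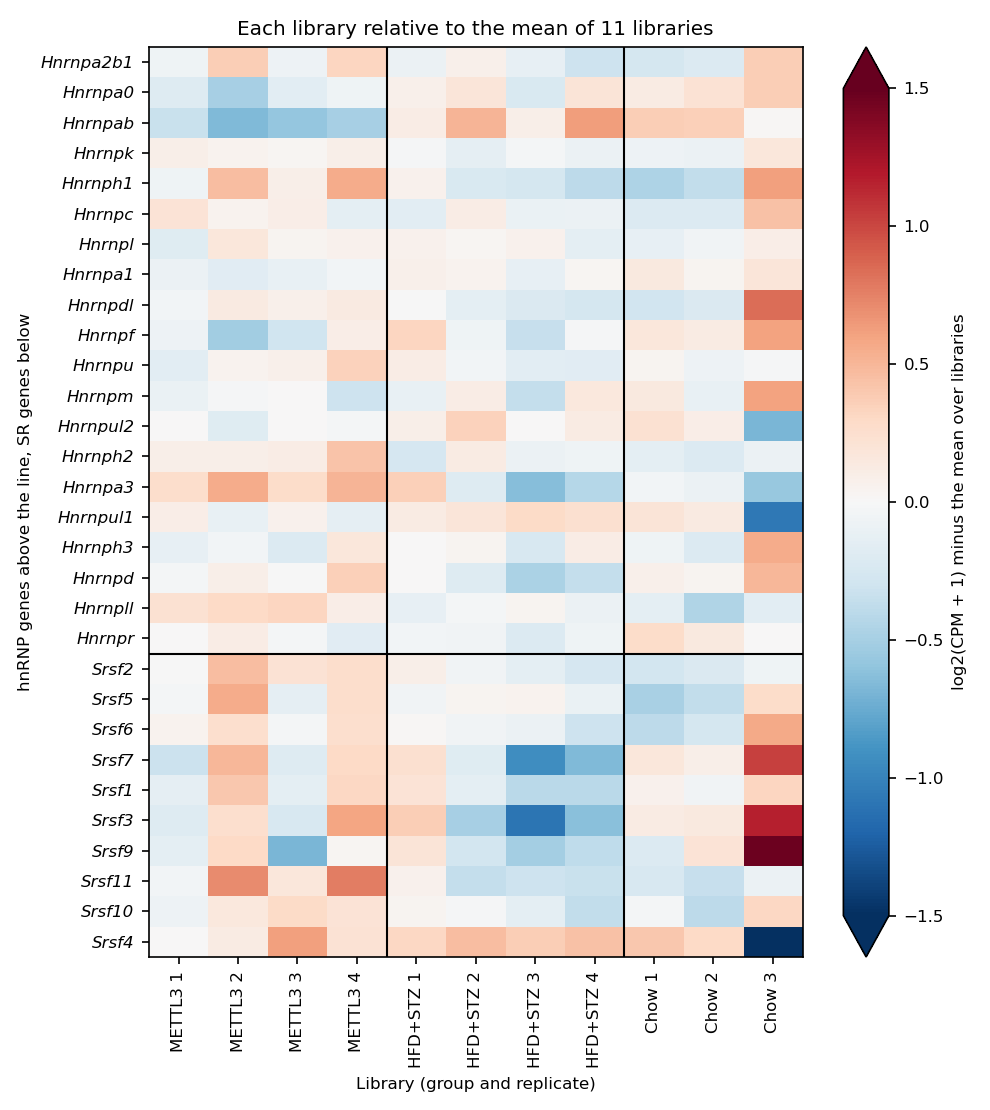
log2(CPM + 1) of the 30 tested members in each library, minus the mean over the 11 libraries, with red for higher and blue for lower. Columns run from METTL3 through HFD+STZ to Chow. Hnrnpab is blue in all 4 METTL3 libraries, and Chow replicate 3 holds the highest value for 16 members, Srsf3, Srsf7 and Srsf9 among them, and the lowest for Srsf4.

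Chow replicate 3, described above as standing apart, also differed from its group in single SR and hnRNP genes. Srsf4, a member with a long serine and arginine domain, stood at 8.54, 9.36, 13.6 and 10.04 CPM in METTL3 hearts, 10.8, 12.2, 11.3 and 11.9 CPM in HFD+STZ hearts and 11.6 and 10.7 CPM in Chow replicates 1 and 2. In Chow replicate 3 it was listed at a count of 0, against 109 to 224 counts in each of the other libraries. Its log2 fold change over Chow was 0.63 (SE 0.78) in HFD+STZ hearts, and 0.06 without that library. Hnrnpul1 was at 49.4 to 58.1 CPM in METTL3 hearts, 59.1 to 66.1 CPM in HFD+STZ hearts and 62.2, 59.6 and 25.2 CPM in Chow hearts, and Hnrnpul2 at 61.01 to 70.1, 69.8 to 88.9 and 81.5, 74.5 and 42.9 CPM in the same order. Both are relatives of the nuclear scaffold protein Hnrnpu, which lay at 162 to 231 CPM in METTL3 hearts, 161 to 196 CPM in HFD+STZ hearts and 173 to 186 CPM in Chow hearts. Chow replicate 3 was the lowest library for Srsf4, Hnrnpul1 and Hnrnpul2 and in the middle for Hnrnpu.

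By label, METTL3 and Chow hearts differed in HFD, STZ and AAV METTL3 together. This contrast cannot assign a difference to any one of them, and it shares its libraries with the comparisons above. Hnrnpab was the 1 member of 30 that edgeR called, at 55.9 ± 5.696 CPM in METTL3 hearts (SD, n = 4) against 96.2 ± 12.8 CPM in Chow hearts (SD, n = 3), a fold change of 0.582. Over all genes 475 of 14862 were called, 3.2% (1.82% higher and 1.37% lower), so the share of members was near the background. DESeq2 called 3 of 30 members, Hnrnpa0 and Hnrnpab lower and Hnrnpll higher, with 10.2% of all genes. Limma voom with quality weights called 11 of 30, a larger share than the 20.7% of all genes. Of these, Hnrnpa0 and Hnrnpab lay lower, and Hnrnpa3, Hnrnph1, Hnrnph2, Hnrnpll, Srsf10, Srsf11, Srsf2, Srsf5 and Srsf6 higher. A voom share of all genes by direction is not given. With GC content and length offset (edgeR), the lower genes were at -0.20 and -0.64 on the log2 scale. The higher genes, in that order, were then at 0.39, -0.10, 0.06, 0.11, -0.25, 0.48, 0.47, 0.16 and 0.07. The Hnrnpab call was lost in 14 of 23 alternatives, with log2 fold changes of -0.90 to -0.64 over all of them. Leaving out Chow replicate 3 gave -0.90 (edgeR, Benjamini-Hochberg adjusted p of 0.0147), but leaving out any METTL3 replicate, HFD+STZ replicate 2, 3 or 4, or Chow replicate 1 or 2 ended the call, with an adjusted p (edgeR, Benjamini-Hochberg) of 0.0530 to 0.112. With GC content and length offset the value was -0.64 (edgeR, Benjamini-Hochberg adjusted p of 0.0959). With the code range as a covariate it was -0.89 (edgeR, Benjamini-Hochberg adjusted p of 0.174), and within 78 to 98 Hnrnpab was at 56.7 CPM in METTL3 replicate 4 against 81.5 to 104 CPM in Chow. Summed immediate early and heat shock genes, 10 in all with none at 0, were at 132 to 155 CPM in METTL3 hearts and 246 to 387 CPM in Chow hearts, with 3 of 10 called lower, and macrophage markers differed as given above, with 3 of 8 called lower. Their part in the Hnrnpab call was not tested.

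Further members had their 4 METTL3 libraries outside the Chow range. Above Chow lay Hnrnpll, Srsf11, Hnrnpa3, Srsf2 and Hnrnph2, with log2 fold changes of 0.50, 0.67, 0.63, 0.43 and 0.34. Below Chow lay Hnrnpa0, Hnrnpf and Hnrnpa1 besides Hnrnpab, at -0.46, -0.51 and -0.23. Without Chow replicate 3 the first 5 were 0.53, 0.74, 0.47, 0.49 and 0.37, and the other 3 -0.40, -0.34 and -0.21. With GC content and length offset the first 5 were 0.11, 0.48, 0.39, 0.47 and 0.06. The other 3 were then -0.20, -0.52 and -0.38. With all libraries none of these 8 passed (edgeR, Benjamini-Hochberg adjusted p of 0.0815 to 0.346). The groups thus did not overlap in 9 of 30 members, 30%, against 18.7% of all genes, 5 higher (10.5% of all genes) and 4 lower (8.26% of all genes). In the same comparison an unadjusted p under 0.05 was reached by 8 members, 26.7%, against 21.7% of all genes, 5 of them higher (10.6% of all genes) and 3 lower (11.1% of all genes). The median log2 fold change was 0.04 over the members and -0.01 over all genes, with 18 members above 0 and 49.2% of all genes. Without Chow replicate 3 the members' median was 0.10, with 19 above 0. With GC content and length offset it was -0.25, with 10 members above 0.

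**Figure D5:**
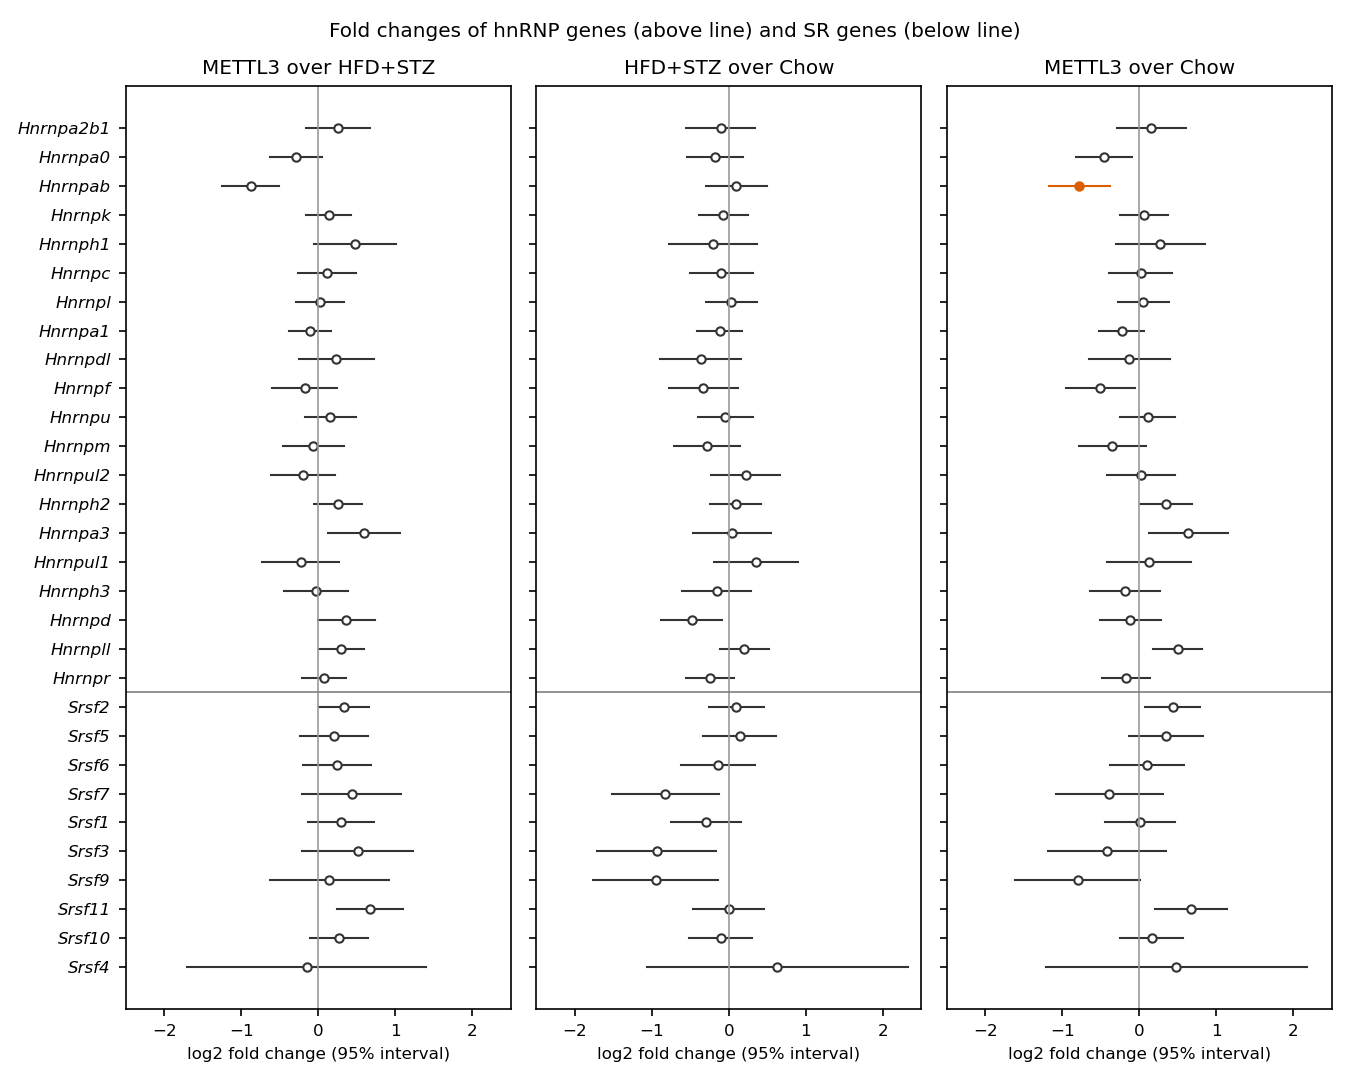
Log2 fold changes of the 30 tested members in 3 comparisons, with 95% intervals from the edgeR fit and hnRNP genes above the line. The filled orange point, Hnrnpab for METTL3 over Chow, is the call past an adjusted p of 0.05. The Srsf4 intervals are the widest, with a count of 0 in Chow replicate 3.

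The remaining members had no edgeR call in any of the 3 comparisons. Between METTL3 and HFD+STZ, Hnrnpk, a protein of the KH-domain type that binds C-rich RNA, had 0.13 (SE 0.14) on the log2 scale, at 195 to 204 CPM in METTL3 hearts, 174 to 189.6 CPM in HFD+STZ hearts and 179 to 216 CPM in Chow hearts. Hnrnpl, which binds CA repeats, was at 122 to 156 CPM in METTL3 hearts, 125 to 145 CPM in HFD+STZ hearts and 126 to 148 CPM in Chow hearts. Between METTL3 and HFD+STZ its log2 fold change was 0.02 (SE 0.14) with a 95% interval of -0.29 to 0.33, and that of Hnrnpu was 0.15 (SE 0.15). Srsf1, the best known of the SR proteins, was at 75.96 to 111 CPM in METTL3 hearts, 63.3 to 97.6 CPM in HFD+STZ hearts and 81.02 to 106 CPM in Chow hearts. Its log2 fold change over HFD+STZ was 0.30 with a 95% interval of -0.13 to 0.72. Srsf10, an SR-like repressor that heat shock activates, was at 51.2 to 66.1 CPM in METTL3 hearts, 41.8 to 55.7 CPM in HFD+STZ hearts and 41.1 to 67.4 CPM in Chow hearts. Hnrnph3 lay at 16.99 to 22.3 CPM in METTL3 hearts, 16.4 to 21.3 CPM in HFD+STZ hearts and 16.9 to 29.5 CPM in Chow hearts. These intervals do not show that the levels were equal.

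Other genes of the splicing machinery were counted in lists chosen for this purpose, with earlier results of these data known. Their counts at the unadjusted p are given without an offset for GC content and length. Between METTL3 and HFD+STZ edgeR called 0 genes in each of the 7 lists. Among all genes, 5.43% lay higher and 3.63% lower at an unadjusted p under 0.05, against 15.8% and 4.39% of the 114 list genes tested. Of 11 kinases that act on SR proteins, 3 lay above HFD+STZ and 0 below at an unadjusted p under 0.05, with a median log2 fold change of 0.11. Of 24 SR-related proteins 6 lay above and 1 below (median 0.14), and of 26 other RNA-binding proteins 7 above and 2 below (median 0.12). For 9 muscle and heart splicing regulators 2 lay above and 0 below, with a median of 0.35, and for 33 core spliceosome genes 0 above and 2 below, with a median of -0.06. Of 3 import receptors and 8 genes of the m6A writer complex 0 reached that p, with medians of -0.07 and 0.13. Between HFD+STZ and Chow edgeR called 0 genes of these lists. At the unadjusted p, 5.26% of the list genes lay higher and 7.02% lower, against 5.58% and 6.53% of all genes. Of these, 2 kinases lay higher and 1 lower, 1 SR-related gene higher and 1 lower, 1 other RNA-binding gene each way, 1 heart regulator higher, and 1 core gene higher and 5 lower.

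Between METTL3 and Chow edgeR called 5 of the 114 list genes, all higher, which is 4.39%, against 3.2% of all genes (1.82% higher). The kinase gene Dyrk1a was at 58.1 ± 5.58 CPM in METTL3 hearts (SD, n = 4) and 36.3 ± 4.27 CPM in Chow hearts (SD, n = 3), a log2 fold change of 0.68 (edgeR, Benjamini-Hochberg adjusted p of 0.0364). The SR-related genes Bclaf1 and Luc7l2 (a U1 snRNP factor) had 0.76 and 0.81 (edgeR, Benjamini-Hochberg adjusted p of 0.0302 and 0.0455). Tia1, which promotes use of weak 5′ splice sites, was at 51.3 ± 18.03 CPM in METTL3 hearts and 23.6 ± 4.25 CPM in Chow hearts, with 1.12 (edgeR, Benjamini-Hochberg adjusted p of 0.0380). Sf3b1, the branch-site subunit of the U2 snRNP, was at 282 ± 34.2 CPM in METTL3 hearts and 140.0 ± 20.4 CPM in Chow hearts, with 1.01 (edgeR, Benjamini-Hochberg adjusted p of 0.0250). Without Chow replicate 3, 4 of the 5 were called, with Luc7l2 at 0.63 (edgeR, Benjamini-Hochberg adjusted p of 0.0503). With GC content and length offset none of the 5 was called (edgeR, Benjamini-Hochberg adjusted p of 0.0745 to 0.396), with log2 fold changes of 0.26 to 0.67. Median log2 fold changes over Chow were 0.33 for the kinases, 0.12 for SR-related genes, 0.19 for other RNA-binding genes, 0.30 for heart regulators, 0.31 for import receptors, 0.16 for the writer complex and -0.28 for the core spliceosome, against -0.01 over all genes. Some core genes varied widely among Chow hearts, with Sf3b5 at 61.02 ± 45.2 CPM and Snrpb2 at 20.8 ± 14.2 CPM (SD, n = 3). Others did not, such as Eftud2 at 35.9 ± 1.08 CPM (SD, n = 3). Whether the core median, or the 5 core genes lower in HFD+STZ than in Chow hearts, depended on Chow replicate 3 was not tested.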

How the data were processed

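RNA was sequenced from whole hearts in 11 libraries, 4 METTL3, 4 HFD+STZ and 3 Chow. The authors deposited raw whole-number counts with a gene length in bases. Ribosomal RNA was depleted, per the labels' protocols, and FastQC, Salmon and the build mm10 are named in the submitters' processing notes, without versions. How reads shared between relatives were assigned, the strand setting and the annotation used are not stated in the labels, so counts of close relatives and of overlapping genes are uncertain. Nothing in the labels says that libraries came from separate animals, and the spread behind the p-values may therefore be technical.

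Groups were taken from the labels. Counts were tested with edgeR 4.0.16 (quasi-likelihood, TMM, R 4.3.3), all libraries in 1 model of group means, on 14862 genes left by a filter (minimum count 10, minimum total 15). P-values were adjusted over all of them by Benjamini-Hochberg, with a threshold of 0.05, and intervals are 95% intervals of the fit. CPM is computed from TMM-scaled library sizes. Alternatives were DESeq2 1.42.0, limma 3.58.1 (voom), other scalings and filters, offsets for GC content and length (loess span 0.5), the replicate block, sample code ranges and leaving out libraries. The count script was tested on simulated data. Transcript GC content is from GENCODE M21, whose coordinates were the same for 29 of 31 members.

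The members and lists were chosen with earlier results of these data known. Values in every library are given for the 8 members with the smallest p in each comparison, the 3 hnRNP and 3 SR genes with the highest level per length, and Hnrnpa2b1 and Hnrnpc. List genes are named where called or where their spread in Chow hearts is given. No 2 libraries of a group agreed within sampling noise.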

Additional observations from a re-analysis of the deposited data

Results flagged for a closer look

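Within the 4 METTL3 or 4 HFD+STZ libraries, 4 of 60 sets of values held a library far from the others, by Dixon's 95% critical value for 4 values. By chance about 1 in 20 such groups would hold one. Hnrnph2 was at 59.0 CPM in METTL3 replicate 4, against 46.5 to 47.4 CPM in the other METTL3 libraries. Hnrnpl was at 125 CPM in HFD+STZ replicate 4, against 142 to 145 CPM in the other HFD+STZ libraries. Hnrnpr was at 29.1 CPM in HFD+STZ replicate 3, against 32.1 to 32.6 CPM in the others. Srsf11 was at 77.0 CPM in HFD+STZ replicate 1, against 57.2 to 58.8 CPM in the others. The cause of these values was not tested.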

How the results depend on the processing

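Of 31 log2 fold changes recomputed under each alternative (the 8 smallest p of each comparison, and Hnrnpa2b1, Hnrnpc and Hnrnpab), 22 kept their sign under every alternative tried, 24 for METTL3 versus HFD+STZ and 23 for each comparison with Chow. Members called between METTL3 and HFD+STZ numbered 1 by DESeq2, 3 by limma voom and 4 without Chow replicate 3 and HFD+STZ replicate 1 together, and all genes called 139, 395 and 403. Between HFD+STZ and Chow limma voom called 4 members. All genes called there were 307 by DESeq2, 1954 by voom, 190 without a filter, 44 at a minimum count of 50, 0 with only the groups compared, 1 with the code range as covariate, 493 without those 2 libraries and 65 with GC and length offsets. Between METTL3 and Chow, members called were 3 by DESeq2, 11 by voom, 4 without those 2 libraries, and 0 with only the groups compared, the code range or the offsets. All genes called there were 1509, 3078, 1258, 54, 1 and 233 in the same order, and 747 without a filter.

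The replicate numbers did not pair the libraries, with correlations of -0.23 to 0.16 between libraries of 1 number. With the replicate block, 2 genes were called between HFD+STZ and Chow, and 5 genes and 0 members between METTL3 and Chow. With the block and offsets together these were 5, and 14 and 0, and the members' median was -0.0200 over HFD+STZ and -0.24 over Chow for METTL3 hearts. With offsets alone the medians were -0.0427 and -0.25. The median between HFD+STZ and Chow was 0.0411 by voom and 0.0195 without the 2 libraries.

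Leaving out 1 library at a time gave 1 to 215 genes called between HFD+STZ and Chow, highest without HFD+STZ replicate 1, and 34 to 750 between METTL3 and Chow, lowest without Chow replicate 2 and highest without Chow replicate 3. Members called between METTL3 and Chow were 0 to 1, and the median between HFD+STZ and Chow ran over -0.17 to 0.0362, above 0 without Chow replicate 3.

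Sign changes were all in comparisons in which edgeR did not call the gene. With offsets, 7 of 30 members changed sign between METTL3 and HFD+STZ, 1 between HFD+STZ and Chow and 8 between METTL3 and Chow. Between METTL3 and Chow Hnrnpc turned to -0.0050 by DESeq2, -0.0052 with its size factors, -0.0242 at a minimum count of 50, -0.0133 with only the groups compared, -0.14 with the code range, -0.27 with offsets and -0.23 with block and offsets, and without 1 library lay between -0.0941 and 0.26, below 0 without Chow replicate 1, Chow replicate 2 or METTL3 replicate 1. Hnrnpa2b1 turned to -0.27 with offsets, with or without the block. Between METTL3 and HFD+STZ, Hnrnpa2b1 turned to -0.0913 and Hnrnpc to -0.17 with offsets, and to -0.10 and -0.17 with block and offsets. Between HFD+STZ and Chow, voom gave 0.0321 for Hnrnpdl, 0.0373 for Hnrnpm, 0.10 for Hnrnpa2b1 and 0.17 for Hnrnpc. Leaving out 1 library at a time gave -0.54 to 0.11 for Hnrnpdl, -0.20 to 0.14 for Hnrnpa2b1, -0.19 to 0.16 for Hnrnpc and -0.0036 to 0.18 for Hnrnpab, the sign turning without Chow replicate 3. Without HFD+STZ replicate 1 too, the first 3 were 0.0502, 0.12 and 0.19. Hnrnpab was -0.0130 with the code range. The cause of these changes was not tested. Depth limits Srsf12, with at most 2 counts a library.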
